A study of Mus musculus with 2 samples.

Results

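The genes described here encode the enzymes of the lower part of glycolysis, from aldolase to lactate dehydrogenase: Aldoa, Aldoc, Tpi1, Gapdh, Pgk1, Pgam1, Eno1, Eno2, Pkm2 and Ldha. Members were the array probes whose gene name in the scanner output is one of these 10 names. Probes were found for 9 of the 10, because no probe bears the name Gapdh. The 9 genes had 15 probes of 41174 on the array, printed as 24 spots, out of 27962 gene names in all. All 15 probes were measured, which here means well above background in both dyes of both arrays, against 17713 gene names measured in all. Probes were taken by gene name, but the members were chosen with earlier results of these data known.

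The cells were primary B cells from spleens of C57/BL6 mice, isolated by removing CD43-positive cells with magnetic beads. Both groups were kept in lipopolysaccharide (25 µg/ml) with interleukin-4 (10 ng/ml) and exposed for 20 h to retroviral supernatant with 8 µg/ml polybrene. One group received a vector carrying miR-181b and GFP, the control group a vector carrying GFP alone, and GFP-positive cells were sorted 2 days after transduction. There was 1 RNA sample per vector, hybridised on 2 arrays with the dyes exchanged. On array 1 the miR-181b RNA was in Cy5 and the control RNA in Cy3, and on array 2 the dyes were the other way round. Neither the age or sex of the mice, nor whether spleens were pooled, is stated in the labels used here.

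Both arrays carry the same pair of RNA samples, so they are 1 replicate and no test between conditions is possible. Values are log2 ratios of miR-181b over control, with the mean of both arrays and, after ±, how far each array lay from it. This spread is technical and does not include the spread between cultures. The arrays give relative RNA amounts in bulk, so that fewer cells of a type and less RNA per cell cannot be told apart.

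Glycolysis splits glucose into a pair of pyruvate molecules. Aldolase cuts a sugar bisphosphate into triose phosphates, and the later enzymes oxidise and rearrange these to pyruvate, yielding ATP and NADH. Lactate dehydrogenase turns pyruvate into lactate and regains the NAD+ that the pathway needs. B cells stimulated through Toll-like receptors and interleukin-4 take up more glucose, and these enzymes are among the most abundant proteins of dividing cells. In many cell types the genes of the pathway are induced by the transcription factors HIF1 and Myc.

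A microRNA pairs with target messengers mostly through its seed, bases 2 to 8. The overexpressed RNA is shown with its seed in capitals, since the probes were searched for the matching letters. RefSeq (GRCm38.p6) places it, on the plus strand, in the genes Mir181b-1 at chr1:137966650-137966673 and Mir181b-2 at chr2:38853845-38853868.
mmu-miR-181b-5p: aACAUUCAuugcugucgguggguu
The seed's complement, TGAATGT, is in none of the 15 member probes, that is 0 of 15, and in 393 of all 41174 probes (0.95%). This concerns the 60 bases of each probe only and says nothing about the rest of the transcripts.

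Within Cy3 signals, all 9 measured genes had less RNA signal in miR-181b cells than in control cells, against 52.9% of all genes. This ratio compares spots of different arrays, and its median fell from 0.05 in the dimmest probes of the array to −0.15 in the brightest. The share that was lower among equally bright genes was not counted. Over both dyes the scanner limited what could be measured. The arrays disagreed in direction for 4 of the 9, among them Eno1 and Pkm2, which had no saturated spot. By probe, 3 of the 7 never saturated had opposite signs. The clearest lower value was that of Aldoc, whose probes were never saturated: −0.54 ± 0.10 and −1.21 ± 0.01. Pgam1 (−0.61 ± 0.18) and Tpi1 (−0.59 ± 0.36) passed 1.5-fold on the mean of both arrays, although spots of both probes were clipped. Compared within Cy3 alone, the dye with least clipping, Pgam1 was 2.66-fold and Ldha 2.23-fold lower, and Tpi1 2.64-fold with its control spot clipped. These Cy3 values are median centred, a comparison added after the data had been seen. In the planned Cy3 comparison after loess, the log2 ratios were −1.25 (Pgam1), −0.99 (Ldha) and −1.23 (Tpi1). In Cy5, median centred, Pgam1 was 1.20-fold lower as recorded, with its control clipped. Among the genes with no saturated spot, Pkm2 had the smallest mean difference, −0.13 ± 0.19, though 8.62% of the pixels of its control spot in Cy5 were at the limit. Aldoa was clipped in 3 of its 4 channels and gave no usable mean.

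Many members were too bright for the scanner. The highest recordable mean intensity was 65252 in Cy3 and 65234 in Cy5. A spot at that ceiling has only a lower limit, and a ratio of 2 such spots says nothing about the RNA. On array 1, 6 of the 15 probes were saturated in at least 50% of their spots in the miR-181b channel (Cy5) and 3 in the control channel (Cy3). On array 2, 8 were saturated in the control channel (Cy5) and 0 in the miR-181b channel (Cy3). There were 7 probes with no saturated spot, those of Aldoc, Eno1, Eno2 and Pkm2. The other 5 genes measured (Aldoa, Tpi1, Pgk1, Pgam1 and Ldha) were clipped in every probe in some channel.

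**Figure D1:**
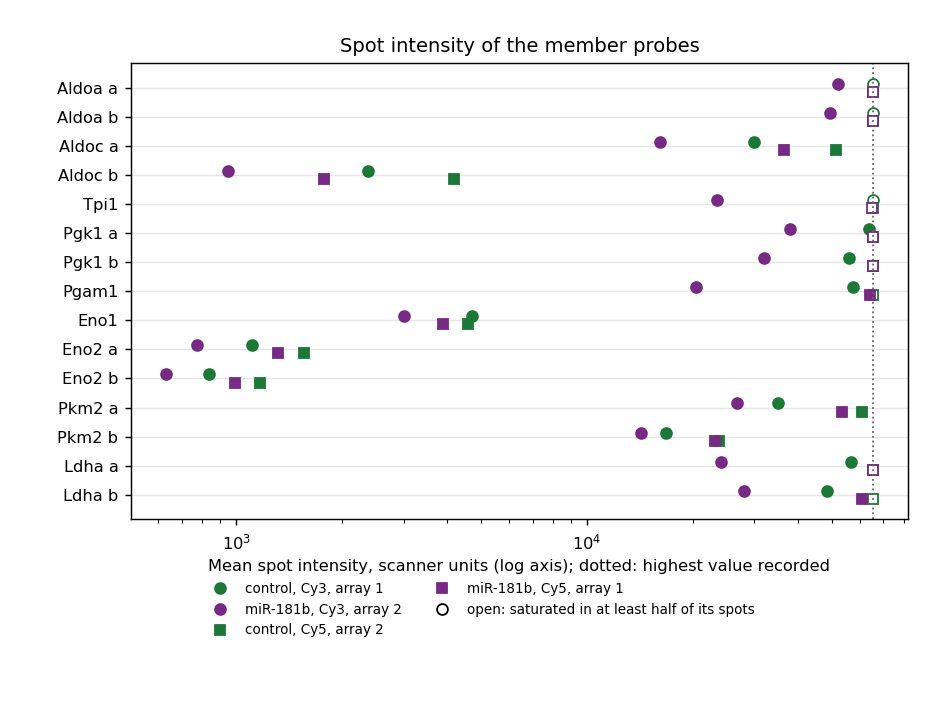
Mean spot intensity (horizontal, scanner units, log axis) of the 15 member probes (vertical; a and b are the 2 probes of a gene) in each dye and array. Circles are Cy3 and squares Cy5, purple is miR-181b RNA and green control RNA, and open symbols at the dotted ceiling are saturated. In Cy3 every purple circle lies to the left of its green circle, while in Cy5 most bright probes sit at the ceiling for both RNAs.

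Opposite signs on the arrays were common among the bright probes of the whole array, and the part of clipping in this was not tested. Of 636 measured probes with a mean log2 intensity of 15 or more, 62.7% were lower on array 1 and higher on array 2, with median ratios of −0.27 and 0.52. Among the 503 saturated probes of other genes the medians were −0.48 and 0.71, and 75.9% showed that pattern. In the bins of dimmer probes the share was 11.6% to 26.9% and the medians lay between −0.07 and 0.06. Of the member probes, 9 lie in the brightest bin.

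**Figure D2:**
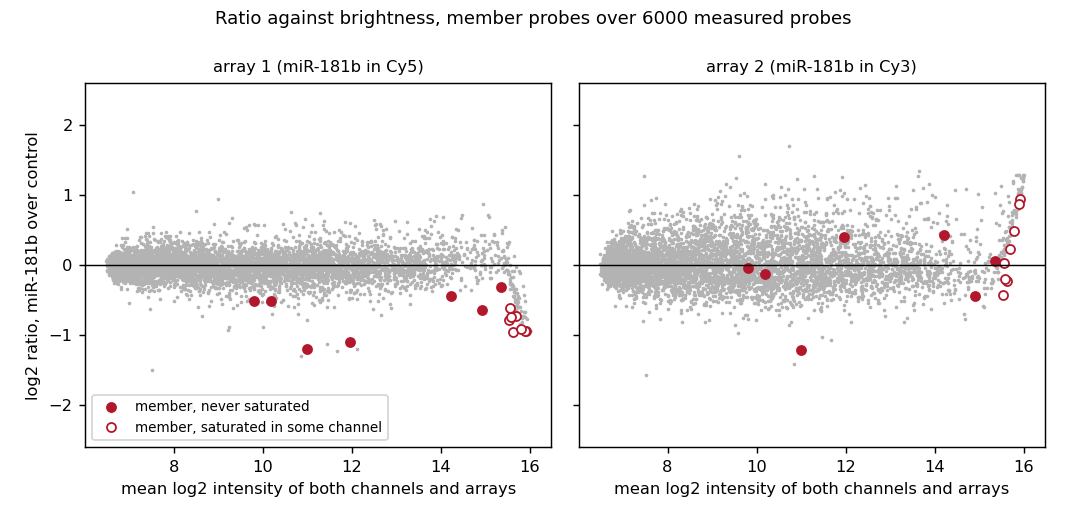
Log2 ratio of miR-181b over control (vertical) against mean log2 intensity (horizontal) on array 1, left, and array 2, right. Grey points are 6000 measured probes; red points are the 15 member probes, open where a channel was saturated. At the bright end the grey points bend down on array 1 and up on array 2, and the saturated members lie on or below that bend.

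All 15 member probes were lower in miR-181b RNA on array 1 and 7 of the 15 on array 2. With opposite signs in 8 probes, none was higher on both arrays (0 of 15). Those 8 were lower on array 1 and higher on array 2. Of all measured probes in the brightest bin, which holds 9 member probes, 62.7% did the same, and 11.6% to 26.9% in dimmer bins. That bin had a median of −0.27 on array 1, and the share of all probes lower on array 1 was not counted. By gene, taking the brightest probe, 5 of 9 were lower on both arrays, against 27.4% of all measured genes. The median over the 9 genes was −0.35 (−0.79 on array 1, −0.13 on array 2), where all 17713 measured genes had −0.01 (0.01 and −0.02). Of the 9 genes, 2 (Pgam1 and Tpi1) were lower by 1.5-fold on the mean and below 0 on each array, where 0.508% of all genes met that rule. None was higher by the same rule (0 of 9), against 0.813% of all genes. By the stricter rule of 2-fold on the mean and 1.5-fold on each array 0 of 9 genes were lower, against 0.096%. Among genes never saturated, 0 of 4 members were lower by 1.5-fold, beside 0.509% of all 17273 such genes.

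**Figure D3:**
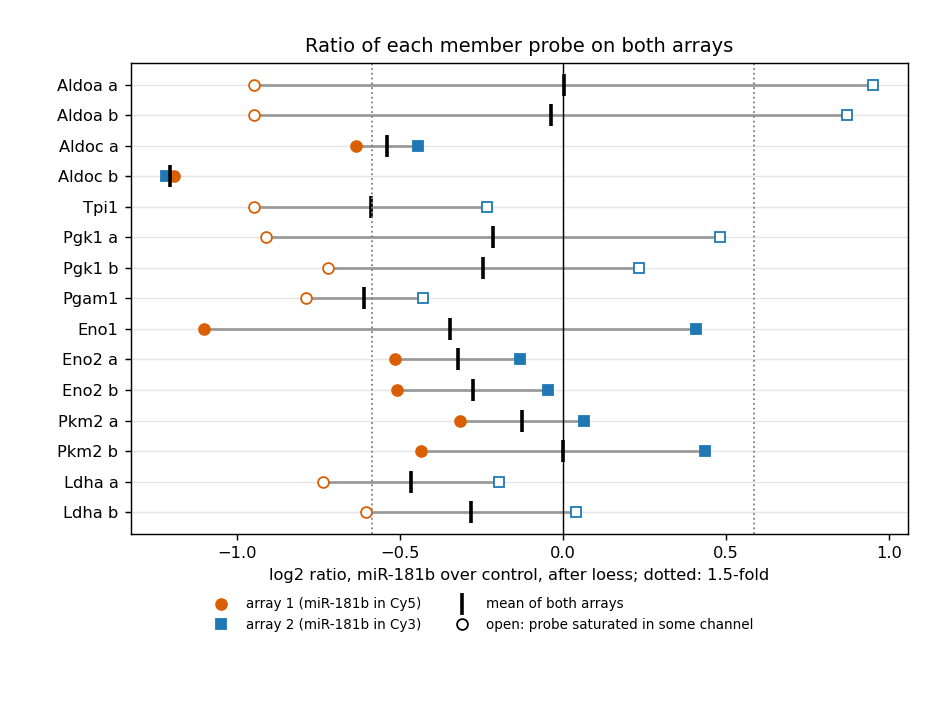
Log2 ratio of miR-181b over control after loess (horizontal; dotted lines at 1.5-fold) for the 15 member probes (vertical) on array 1 (orange circles), array 2 (blue squares) and as their mean (black bar). All orange circles lie left of 0, the blue squares lie on both sides, and both arrays coincide for the second Aldoc probe at −1.19 and −1.22.

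The aldolases cut fructose bisphosphate. Aldoa, the isoform of muscle and most dividing cells, had intensities on its first probe of 65234 (miR-181b, Cy5), 65252 (control, Cy3), 51837 (miR-181b, Cy3) and 65233 (control, Cy5). Only the miR-181b spot in Cy3 was below the ceiling. Its log2 ratios were −0.95 on array 1 and 0.95 on array 2, with a mean of 0.00 ± 0.95. The second probe, which shares a run of 27 bases with the first, read −0.95 and 0.87. In both probes the control was at the ceiling in both dyes and the miR-181b RNA in Cy5, so the mean says nothing about the size of a difference.

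Aldoc, the isoform best known from brain, was lower on both arrays in both of its probes, and neither was saturated. The first probe had intensities of 36443 (miR-181b, Cy5), 29998 (control, Cy3), 16174 (miR-181b, Cy3) and 51145 (control, Cy5). The miR-181b RNA gave less signal than the control RNA in both dyes. Its ratios were −0.64 and −0.45, a mean of 1.46-fold lower, just short of 1.5-fold.

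The second Aldoc probe, designed on the cDNA AK039267, was dimmer, with 1784 (miR-181b, Cy5), 2377 (control, Cy3), 947 (miR-181b, Cy3) and 4178 (control, Cy5). Its ratios of −1.19 and −1.22 gave a mean of −1.21 ± 0.01, or 2.31-fold lower, which met the stricter rule of 2-fold. The longest run of bases shared by the probes is 7, so they sample different stretches of sequence. Both lie on the same side, but they differ in size by more than the distance between arrays, and the gene value used in the counts is that of the brighter probe.

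Tpi1 encodes triose phosphate isomerase, which interconverts the triose phosphates that aldolase releases. Its probe had 65169 (miR-181b, Cy5), 65251 (control, Cy3), 23448 (miR-181b, Cy3) and 65234 (control, Cy5). The other 3 channels were at the ceiling and miR-181b RNA in Cy3 was far below it. The ratios were −0.95 and −0.23, a mean of 1.51-fold lower. Array 1 compares clipped spots only, so this mean is no measure of size. It was −0.57, short of 1.5-fold, when saturated spots had weight 0 in the loess.

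Gapdh, glyceraldehyde-3-phosphate dehydrogenase, makes the NADH of the pathway. No probe bears the name Gapdh or carries a RefSeq transcript accession of it, though 1 is named by its gene ID. In the scanner output 14 probes, that 1 among them, are described as similar to Gapdh, and 13 of the 14 were measured. This group was found after values had been seen. Their mean ratios ran from −0.04 to 0.15, and 12 had opposite signs on the arrays. Of the 13, 0 were lower on both arrays, against 27.4% of all measured genes. The 5 never saturated covered the same range. The probe named by the gene ID of Gapdh, LOC14433, read 0.02 and 0.29. Probes of such copies can bind transcripts of Gapdh itself, since the genome holds many near-identical Gapdh pseudogenes, and which transcript they measured is uncertain.

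Pgk1 encodes phosphoglycerate kinase, the first ATP-yielding step. The mean over the 10 spots of its first probe was 65234 (miR-181b, Cy5), 63700 (control, Cy3), 37879 (miR-181b, Cy3) and 65234 (control, Cy5). Every Cy5 spot was saturated on both arrays, and 4 of the 10 control spots in Cy3. The ratios were −0.91 and 0.48, a mean of −0.21 ± 0.70. The second probe, which shares 38 bases with it, gave −0.72 and 0.23.

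Pgam1, phosphoglycerate mutase, moves the phosphate group of phosphoglycerate. Its intensities were 64075 (miR-181b, Cy5), 57545 (control, Cy3), 20514 (miR-181b, Cy3) and 65234 (control, Cy5). The control was saturated in Cy5, and 23.3% of the pixels of the miR-181b spot in Cy5 were at the limit, while both Cy3 spots were open. Its ratios of −0.79 and −0.43 gave a mean of −0.61 ± 0.18, or 1.53-fold lower. In Cy5 alone after loess, where the control was clipped, it read 0.03.

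The enolases dehydrate phosphoglycerate to phosphoenolpyruvate. The Eno1 probe, for the isoform found in nearly all cells, had 3875 (miR-181b, Cy5), 4712 (control, Cy3), 3017 (miR-181b, Cy3) and 4570 (control, Cy5). No spot was near the ceiling, yet the ratios were −1.10 and 0.41, a mean of −0.35 ± 0.75. Within either dye the recorded intensity of the miR-181b spot was the lower. In the ratios after loess, the difference between dyes (−0.75 for Cy5 over Cy3) was larger than that between RNAs (−0.35). The probe is shown because it behaved so without saturation.
Eno1 probe: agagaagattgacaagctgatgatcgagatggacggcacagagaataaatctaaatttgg

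A difference between dyes of that size was rare among unsaturated genes. Counted by the same 1.5-fold rule on the dye difference, 254 of all 17713 genes (1.43%) were lower on array 1 and higher on array 2, but only 41 of the 17273 never saturated (0.237%). Of the members 3 met it: Aldoa, Pgk1 and Eno1. In the opposite direction 2 genes of the array and 0 members did.

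Eno2, the isoform named for neurons, had 1319 (miR-181b, Cy5), 1110 (control, Cy3), 775 (miR-181b, Cy3) and 1561 (control, Cy5) on its first probe. Its ratios were −0.52 and −0.13, and those of the second probe −0.51 and −0.05. All 4 lay below 0, with means of −0.32 ± 0.19 and −0.28 ± 0.23 on probes that share 31 bases.

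Pkm2 is the file's name for the pyruvate kinase gene Pkm, whose enzyme makes pyruvate and ATP. Its first probe had 53444 (miR-181b, Cy5), 34977 (control, Cy3), 26772 (miR-181b, Cy3) and 60798 (control, Cy5). In its control spot in Cy5, 8.62% of the pixels were at the limit, although the spot was not flagged as saturated. The ratios of this probe, −0.32 and 0.06, differed in sign, with a mean of −0.13 ± 0.19. The second probe, sharing no run longer than 5 bases, gave −0.44 and 0.43, a mean of 0.00. Which splice forms of the transcript the probes measure was not analysed here.

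Ldha encodes the A subunit of lactate dehydrogenase. Its first probe had 65234 (miR-181b, Cy5), 56488 (control, Cy3), 24036 (miR-181b, Cy3) and 65234 (control, Cy5). Both RNAs were clipped in Cy5 and neither in Cy3. Its ratios were −0.74 and −0.20, a mean of −0.47 ± 0.27, and those of the second probe −0.61 and 0.04. Further, 4 probes described as similar to Ldha, and 2 described as similar to Tpi1, were never saturated; they too were picked out after values had been seen. The 4 Ldha-like probes read −0.44 to −0.39 on the mean and the Tpi1-like ones −0.97 and −0.62. All 6 were lower on both arrays (4 of 4 and 2 of 2), against 27.4% of all measured genes. Whether they measured Ldha and Tpi1 or copies of these genes is uncertain, so the 6 cannot be counted as separate genes.

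**Figure D4:**
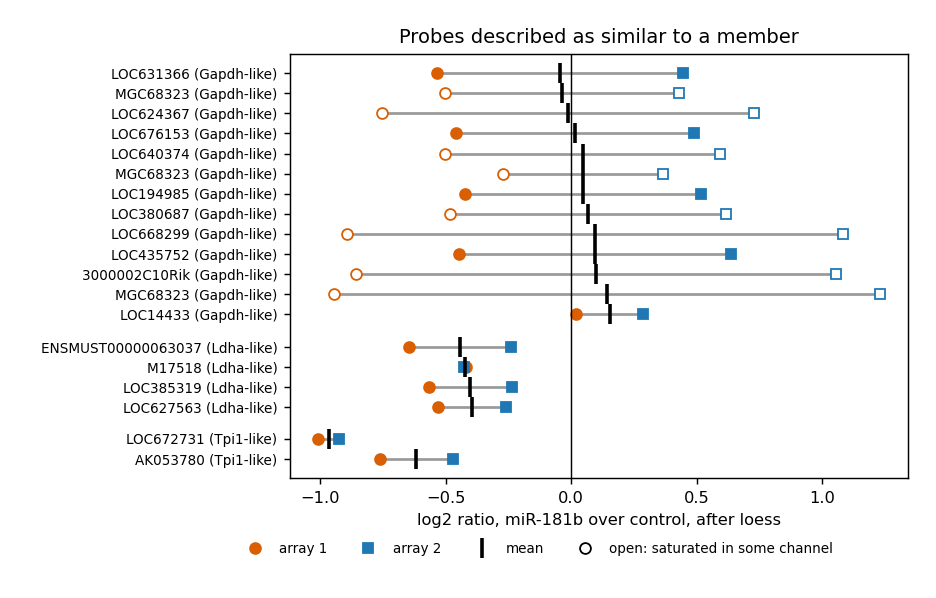
Log2 ratio of miR-181b over control after loess (horizontal) for the measured probes that the file describes as similar to Gapdh (13), Ldha (4) or Tpi1 (2), on array 1 (orange), array 2 (blue) and as the mean (black bar); open symbols are saturated. The Gapdh-like means lie between −0.04 and 0.15 with the arrays on opposite sides in 12 probes, and the Ldha-like and Tpi1-like probes lie left of 0 on both arrays.

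Because so much Cy5 signal was clipped, the RNAs were also compared within 1 dye, the miR-181b spot of one array over the control spot of the other, centred on the median of unsaturated probes. This comparison was added after the data had been seen, and it includes differences between the arrays. In Cy3, 5 of 9 genes were lower by at least 1.5-fold, against 0.944% of all genes. Pgam1 was 2.66-fold lower (−1.41), Ldha 2.23-fold (1.63-fold in its second probe) and Aldoc 1.76-fold (2.39-fold). Tpi1 was 2.64-fold lower as recorded, with its control spot clipped. Pgk1 was 1.59-fold lower as recorded, with 4 of 10 control spots clipped, and 1.65-fold in its second probe, which was open in Cy3. Pgam1, Tpi1 and Ldha, 3 of 9, passed 2-fold, against 0.186% of all genes. Short of 1.5-fold were Eno1 at 1.48-fold, Eno2 at 1.35-fold and Pkm2 at 1.24-fold. Aldoa was 1.19-fold lower as recorded, but its control was clipped, so that it cannot be placed on either side of 1.5-fold.

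The median of the 9 genes in Cy3 was −0.67, beside −0.01 for all genes. Bright probes in general were only slightly lower in this comparison. The median in the brightest bin was −0.15, with 2.64% lower by 1.5-fold, and that of the saturated probes of other genes was −0.15, with 1.90%. The Gapdh-like probes ran from −0.32 to 0.08, the Ldha-like ones from −0.71 to −0.48, and the Tpi1-like ones read −0.92 and −0.76.

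In Cy5 a value could be given for 6 genes. Aldoc was 1.66-fold lower (2.70-fold in its second probe), Eno1 1.38-fold, Pkm2 1.35-fold and Eno2 1.34-fold. Pgam1 was 1.20-fold lower as recorded and the second Ldha probe 1.27-fold, both with the control clipped. For Aldoa, Tpi1 and Pgk1 both RNAs were saturated and no fold could be given. The 4 genes never saturated were lower in each dye, against 40.4% of all never-saturated genes.

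**Figure D5:**
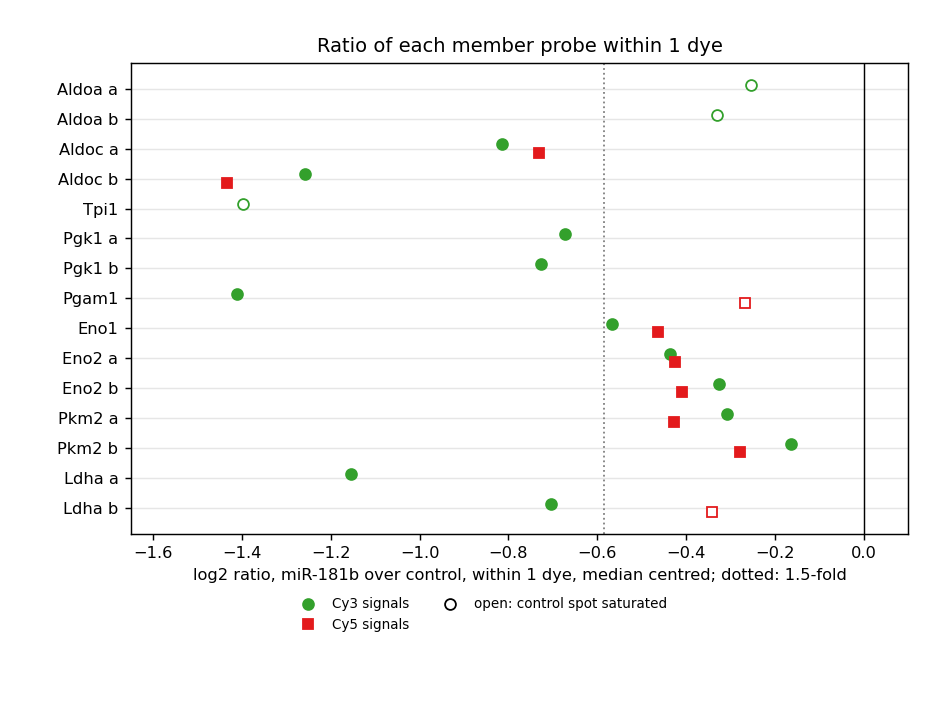
Log2 ratio of miR-181b over control within Cy3 (green circles) or Cy5 (red squares), horizontal, for the 15 member probes, vertical; the dotted line is 1.5-fold. Open symbols have a saturated control spot, and probes with both RNAs saturated have no Cy5 symbol. Every symbol lies left of 0, from −0.16 for the second Pkm2 probe in Cy3 to −1.43 for the second Aldoc probe in Cy5.

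Loess, which removes the trend of ratio with intensity, also set how low the group appeared. With each array centred on its median and no loess, 7 of 9 members met the 1.5-fold rule for lower, against 5.17% of all genes, and 8 of 9 were lower on both arrays, against 55.3%. The medians were then −0.70 for the members and −0.20 for all genes. They were −0.32 for 16 bright housekeeping genes and −0.28 for 9 B cell markers, lists described below.

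Paralogs that catalyse the same or neighbouring steps, most of them known from other tissues, lay on both sides of 0. Of 7 measured, 0 were lower or higher by 1.5-fold, and their median was 0.08. Eno3, the muscle enolase, read −0.29 ± 0.07 and Gapdhs, the sperm form, −0.15 ± 0.03. Ldhb, the heart subunit of lactate dehydrogenase, read 0.31 ± 0.14, Bpgm, which makes bisphosphoglycerate in red cells, 0.22 ± 0.22, and Pgk2, the testis kinase, 0.18 ± 0.02. Pklr, the pyruvate kinase of liver and red cells, read −0.04 ± 0.03 and Ldhd, which handles D-lactate, 0.08 ± 0.10. Pgam2 and Ldhc were not well above background. Several measured paralogs were dim, beside Pgam2 at 73 to 104 scanner units. Pgk2 read 100 to 178, Pklr 106 to 167, Ldhd 99 to 170, Gapdhs 150 to 263 and Ldhb 162 to 381. Eno3 (1565 to 3885) and Bpgm (1591 to 3770) were brighter. The dimmest member probe, the second of Eno2, read 632 to 1170. Whether a difference would show at the signal of the dim paralogs was not tested, so their values do not set them apart from the members.

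For the steps before aldolase the median was also below 0. Of 7 genes of upper glycolysis, 2 were lower by 1.5-fold and 0 higher, with a median of −0.42. That median is the value of the brightest Hk1 probe, whose other measured probes read −0.05 to 0.19. The 2 were Pfkl, a phosphofructokinase (−0.82 ± 0.38), and Hk2, the inducible hexokinase (−0.61 ± 0.26). Of 6 transport genes 2 were lower, Slc16a3, the lactate exporter (−2.01 ± 0.11), and Slc2a1, the glucose carrier (−1.16 ± 0.36), and the median was −0.33.

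The medians of the routes that leave glycolysis were near 0 after loess. Without loess they were −0.40 for pyruvate to acetyl-CoA, −0.34 for the citric acid cycle, −0.31 for the pentose phosphate pathway and −0.15 for the serine and glycerol branches, beside −0.20 for all genes. Among 11 measured genes from pyruvate to acetyl-CoA, 1 was lower, Pdk1, the kinase that switches pyruvate dehydrogenase off (−1.48 ± 0.01), and the median was −0.05. In the citric acid cycle 0 of 17 were lower and 1 was higher (Ogdh, 0.62 ± 0.51), with a median of 0.05. The pentose phosphate list (5 measured) had a median of 0.06 and the serine and glycerol branches (8 measured) of 0.14, with 0 past 1.5-fold in either. Among 13 genes that regulate glycolytic genes or flux, 2 were lower, the oxygen sensors Egln3 (−1.15 ± 0.08) and Egln1 (−0.92 ± 0.20), and the median was −0.11.

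Bright genes of other functions and cell type markers were read beside these values. Of 16 measured housekeeping genes, 12 were saturated in some channel, 0 were lower and 1 was higher by 1.5-fold, and their median of 0.12 came from −0.27 (array 1) and 0.49 (array 2). All 9 markers of B cells were measured, with a median of 0.17 (4 saturated), 0 lower and 1 higher by 1.5-fold (Cd79a, 0.86 ± 0.70). The arrays had opposite signs for 8 of these 9, with medians of −0.47 (array 1) and 0.74 (array 2). The 5 plasma cell markers were measured too, with a median of 0.36 and 1 higher by 1.5-fold, Xbp1 (0.99 ± 0.49). All 7 T cell markers passed the background filter, with a median of −0.02, and so did 5 of 7 of macrophages and monocytes, also at −0.02. The median was −0.12 for granulocytes (2 of 4 measured), −0.01 for dendritic cells (2 of 3), −0.02 for natural killer cells (2 of 3), 0.05 for erythroid cells (2 of 3) and 0.29 for stromal cells (2 of 3). The part of the plasma cell markers in the lower values of the members was not tested.

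The promoters of the members were searched for ACGTG, the core of the element that HIF binds, on both strands of the 250 bases before each RefSeq start. It was in 6 of 17 promoters of the members and 5 of 10 genes (Aldoa, Pgk1, Pgam1, Pkm and Ldha), against 16.6% of 32851 promoters and 18.5% of 27025 genes. A gene counted when any of its promoters matched, and the members had 17 promoters for 10 genes, so the shares are not on an equal footing. The Aldoa promoters with a match overlap and hold the same site. Counting GCGTG as well, 13 of 17 promoters and 8 of 10 genes held a match, against 38.6% and 41.5%. CACGTG, an element that Myc can bind and that contains ACGTG, was in 1 of 17, against 6.0%. The stretches shown are those of Ldha, from the first of its 2 starts, with 5 matches, 2 CACGTG elements read on both strands being counted as 4 of them, of Pgam1 with 1 and of Tpi1 with 0. They are the 3 members past 2-fold in Cy3 when median centred. Capitals mark the matches on either strand, CACGT being ACGTG read on the other. Each reads in the direction of its gene: Ldha chr7:46845554-46845803 (plus strand), Pgam1 chr19:41911621-41911870 (plus) and Tpi1 chr6:124814159-124814408 (minus), in GRCm38.p6.
Ldha: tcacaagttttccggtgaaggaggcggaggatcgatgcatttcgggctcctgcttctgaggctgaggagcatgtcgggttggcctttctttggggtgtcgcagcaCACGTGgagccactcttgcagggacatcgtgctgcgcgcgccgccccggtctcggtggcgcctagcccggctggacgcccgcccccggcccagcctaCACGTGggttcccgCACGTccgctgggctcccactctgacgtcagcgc
Pgam1: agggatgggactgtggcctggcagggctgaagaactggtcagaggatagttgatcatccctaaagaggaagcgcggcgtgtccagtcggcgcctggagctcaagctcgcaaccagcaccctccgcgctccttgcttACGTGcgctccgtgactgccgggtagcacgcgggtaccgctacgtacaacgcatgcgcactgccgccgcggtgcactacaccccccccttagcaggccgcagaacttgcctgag
Tpi1: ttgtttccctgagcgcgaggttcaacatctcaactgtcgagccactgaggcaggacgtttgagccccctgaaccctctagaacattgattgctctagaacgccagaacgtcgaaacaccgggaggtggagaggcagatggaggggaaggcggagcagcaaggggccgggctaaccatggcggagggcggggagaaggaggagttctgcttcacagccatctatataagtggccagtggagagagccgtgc
The letters are a description of the sequence, and no binding was measured.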

How the data were processed

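The deposited scanner files hold each spot's mean intensity and the median intensity of its surroundings in both dyes, uncorrected and linear, as written by Agilent Feature Extraction 9.1.3.1 per the file headers. Their log10 ratio (Cy5 over Cy3), also deposited, comes from signals the software had background-subtracted and dye-normalised, and served as an alternative with array 2 turned. Non-control spots numbered 43379 of 45018 on either array. Background correction (normexp, offset 50) and within-array loess, with weight 0 for control spots, were run with limma 3.58.1 under R 4.3.3. Outlier spots (7 and 21) were left out and saturated spots kept. Saturated spots numbered 163 and 71 in Cy3, 538 and 562 in Cy5, and 64.7% to 67.7% of spots were well above background. Spots of a probe were averaged, and the brightest measured probe stands for a gene. Averages within 1 gene can mix transcripts that its probes measure separately.

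With 1 RNA sample per vector no test was made. A gene was called when its mean passed 1.5-fold and both arrays had that sign. Steps were tested on simulated arrays, with known ratios placed only in probes of mean log2 intensity below 14. Of the member probes, 2 lie from 14 to 15 and 9 at 15 or more, so the simulation did not cover most of them. The members, gene lists and alternatives were chosen with earlier results of these data known. All members are described, and of each other list at most 4 genes, those with the largest mean ratio of 1 sign, besides the paralogs; some genes of these lists are not reported here. Promoters and the microRNA came from RefSeq tables (GRCm38.p6), in which all 10 members were found. RNA integrity numbers were 9.7 to 9.8 per the labels.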

Additional observations from a re-analysis of the deposited data

How the results depend on the processing

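The median over the members with a value was below 0 in every setting tried, from −0.79 on array 1 alone to −0.13 on array 2 alone. It covered 9 genes, except 6 in the Cy5 settings and 4 with never-saturated probes only. The count of members lower by 1.5-fold, 2 in the main setting, was 7 without loess, 1 with saturated spots at weight 0 in the loess, 4 in Cy3 alone after loess, 0 in Cy5 alone after loess (6 genes), 5 in Cy3 and 1 in Cy5 when only median centred, and 0 among never-saturated probes (4 genes). Left with 1 array it ran from 0 to 7, and the count of members higher by 1.5-fold from 0 to 1. The count lower by 2-fold, 0 in the main setting, was 2 without loess, 2 in Cy3 after loess and 3 in Cy3 when median centred, and 0 to 1 on a single array. Pgam1 read 0.0338 in Cy5 alone after loess, where its control spot was saturated.

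Over all genes, 90 were lower and 144 higher by 1.5-fold. Without loess these were 916 and 6, with the scanner's log ratio 205 and 226, in Cy3 after loess 136 and 259, in Cy5 after loess 188 and 238, in Cy3 when median centred 167 and 209, and in Cy5 505 and 271. Array 2 alone gave 260 and 884, and array 1 alone 280 and 104. By the 2-fold rule 17 were lower and 1 higher, 56 and 0 without loess. The causes were not tested. Of 106 gene values under alternatives with both arrays, 18 moved by more than the SD of the arrays and 9 had the opposite sign, all but 1 of them for Aldoa.

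No paired analysis was possible because both arrays carry the same pair of RNA samples. The deposited table of log ratios was not run, since its row identifiers could not be tied to a probe column. The within-dye comparisons with median centring were chosen after seeing the data. Saturation, rather than dimness, limits the bright members, and a single RNA pair leaves the spread between cultures unknown.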
